A study of Mus musculus with 12 samples.

Results

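The genes described here are 48 ion channel genes of mouse lung endothelial cells, Kcnj2 among them. They were chosen as protein-coding genes whose symbol begins with that of a potassium (Kcn), sodium (Scn), voltage-gated calcium (Cacn), TRPC, TRPM, TRPV, Piezo, ClC (Clcn), CLIC (Clic), anoctamin (Ano), Orai, Stim, P2X (P2rx), IP3 receptor (Itpr) or ryanodine receptor (Ryr) gene, and whose level averaged 1 FPKM or more over all libraries. FPKM is the number of fragments of a transcript scaled to its length and to the depth of the library. Of 200 genes with such symbols among 23422 in the deposited table, 48 reached that level. They are 48 of the 11378 genes of any kind that did so and were tested.

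The cells were primary endothelial cells from lungs of C57BL/6J wild type mice and of MLK2-/-MLK3-/- mice (double knockout). By its label the double knockout lacks a pair of mixed lineage kinases, which act upstream of JNK, and the labels name no promoter, Cre or other allele. Cells of each genotype grew in the same endothelial medium and were kept at 21% O2 (normoxia) or 1% O2 (hypoxia) for 90 min, which gave 4 groups of 3 libraries. No source used here gives the age or sex of the mice. Nor does any label state whether the libraries within a group stem from different animals or culture dishes, and the p-values therefore capture the spread between these samples only, which may be technical.

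Each library held an estimated 21150000 to 25900000 fragments. The summed level of 10 endothelial markers was 2827 to 3045 FPKM over the libraries, and 9 of the 10 markers averaged 1 FPKM or more. The exception was Vwf, at 0.0688 to 0.208 FPKM. Map3k10, which encodes MLK2, was at 16.6 to 19.2 FPKM in wild type. In the double knockout it was at 0.131 to 0.169 FPKM in normoxia and at 1.02 to 1.34 FPKM in hypoxia. The source of that difference within the double knockout was not tested. Map3k11, which encodes MLK3, was at 31.9 to 36.4 FPKM in wild type and at 10.9 to 12.2 FPKM in the double knockout. All 8 genes of a list of textbook hypoxia targets rose in hypoxia in both genotypes.

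Endothelial cells are not electrically excitable in the way nerve and muscle are, but their membrane potential sets how strongly calcium is drawn into the cell. Inwardly rectifying potassium channels hold that potential. Calcium enters through mechanically opened Piezo channels, ATP-gated P2X channels, TRP channels, and Orai channels that STIM proteins open when the stores of the endoplasmic reticulum run empty after release through IP3 receptors. Chloride carriers of the ClC family work mostly in endosomes and lysosomes, and anoctamins are calcium-activated chloride channels or lipid scramblases.

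The upstream sequences of Kcne3 and Orai2, which rose in both genotypes in hypoxia, and of Kcnj2 are shown because hypoxia-inducible factors are known to bind the core letters ACGTG or GCGTG. They were chosen as genes past the threshold in the same direction in both genotypes with the largest average change and a promoter in the RefSeq table, in which Kcnq1 was not matched, and Kcnj2 was added because it is the gene singled out. Each runs 5′ to 3′ over the 250 bases before a RefSeq start (GRCm38.p6), and capitals mark ACGTG or GCGTG on either strand.
Kcnj2 upstream: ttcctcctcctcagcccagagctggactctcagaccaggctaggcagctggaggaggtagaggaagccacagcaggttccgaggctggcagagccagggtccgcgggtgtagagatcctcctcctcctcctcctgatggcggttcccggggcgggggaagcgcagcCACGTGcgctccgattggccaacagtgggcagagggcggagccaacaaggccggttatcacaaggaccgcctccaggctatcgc
Orai2 upstream: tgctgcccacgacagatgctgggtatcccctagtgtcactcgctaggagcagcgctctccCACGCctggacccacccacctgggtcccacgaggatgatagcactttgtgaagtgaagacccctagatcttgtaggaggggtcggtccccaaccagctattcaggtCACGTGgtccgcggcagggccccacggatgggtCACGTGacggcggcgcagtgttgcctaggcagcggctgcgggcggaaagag
Kcne3 first start upstream: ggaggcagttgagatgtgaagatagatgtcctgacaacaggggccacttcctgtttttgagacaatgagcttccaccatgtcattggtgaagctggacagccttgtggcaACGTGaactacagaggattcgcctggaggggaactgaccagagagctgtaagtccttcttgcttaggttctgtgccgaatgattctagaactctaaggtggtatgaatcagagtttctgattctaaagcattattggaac
Kcne3 second start upstream: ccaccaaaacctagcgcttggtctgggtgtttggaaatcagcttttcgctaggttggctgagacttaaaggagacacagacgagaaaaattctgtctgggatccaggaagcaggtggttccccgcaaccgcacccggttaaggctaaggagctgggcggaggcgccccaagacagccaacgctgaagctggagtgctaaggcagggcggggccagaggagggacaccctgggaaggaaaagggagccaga

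The Kcnj2 stretch is chr11:111065914-111066163 on the plus strand and holds CACGTG, which carries ACGTG on both strands, in overlapping matches that begin 84 and 83 bases before the start. The Orai2 stretch is chr5:136170657-136170906 on the minus strand and holds 5 matches. These are a GCGTG at 190 bases, and a pair of CACGTG with matches at 84 and 83 bases and at 51 and 50 bases. The main Orai2 transcript, ENSMUST00000041048 with 83.8% of its signal, begins 57 bases upstream of this RefSeq start. The matches at 51 and 50 bases therefore lie past the start of that transcript. Kcne3 has 1 match 140 bases before the start at chr7:100176420-100176669 on the plus strand. It has 0 matches in chr7:100178433-100178682 on the plus strand, next to which the 3 transcripts that carried its signal begin. RefSeq promoters were matched for 34 of the 48 genes, and 23 of their 45 promoters (51.1%) held ACGTG or GCGTG on either strand, against 38.6% of all 32851 promoters in the table. A match is a string of letters and not a measured binding site.

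Levels spanned from 1.05 FPKM for P2rx5 to 375 FPKM for Clic1, with a median of 10.2 FPKM against 12.6 FPKM over all tested genes. These levels were used to choose the genes and are a description. Potassium channel pores were few and low: 7 of 77 such genes reached the threshold, of which Kcnj8, the pore of vascular ATP-sensitive potassium channels, was the highest at a mean of 4.78 FPKM. Kcnn4 and Kcnn3, calcium-activated potassium channels known from endothelium, averaged 0.0759 and 0.488 FPKM and were not among the 48. By contrast all 5 store-operated entry genes and both Piezo genes reached it, as did 6 of 9 ClC genes, 3 of 5 CLIC genes, 5 of 10 anoctamins, 4 of 7 P2X genes and 6 of 22 TRP genes.

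The other classes were thinner. Of 26 voltage-gated calcium channel genes, 2 auxiliary subunits reached 1 FPKM and no pore did, and Cacna1c, the L-type pore of cardiac and smooth muscle, averaged 0.0191 FPKM. All 3 IP3 receptors reached the threshold and the 3 ryanodine receptors averaged 0.00299 to 0.0386 FPKM. Of 17 potassium channel auxiliary genes 1 did, namely Kcne3. Of 14 sodium channel genes 4 did, and among them Scn3a, a pore best known from neurons, averaged 205 FPKM. Of 5 neuronal markers Snap25, Syt1 and Rbfox3 were at or below 0.081 FPKM, while Stmn2 and Tubb3 averaged 1 FPKM or more. The 5 summed to 6.62 to 7.18 FPKM in wild type and 8.08 to 9.16 FPKM in the double knockout, and their part in these levels was not tested.

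Of the 152 matching genes below the threshold, 122 averaged under 0.1 FPKM. The 4 genes just inside it were Kcnj2 at 1.64, Kcnf1 at 1.38, Clcn2 at 1.17 and P2rx5 at 1.05 FPKM. The 4 just outside were Kcnd3 at 0.920, Trpv2 at 0.911, Clic6 at 0.896 and Kcnab1 at 0.866 FPKM. Without the 3 double knockout hypoxia libraries Kcnj2 averaged 1.09 FPKM. Group means of Kcnj2 in normoxic wild type cells (0.851 FPKM) and of P2rx5 in normoxic double knockout cells (0.914 FPKM) were below 1 FPKM.

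**Figure D1:**
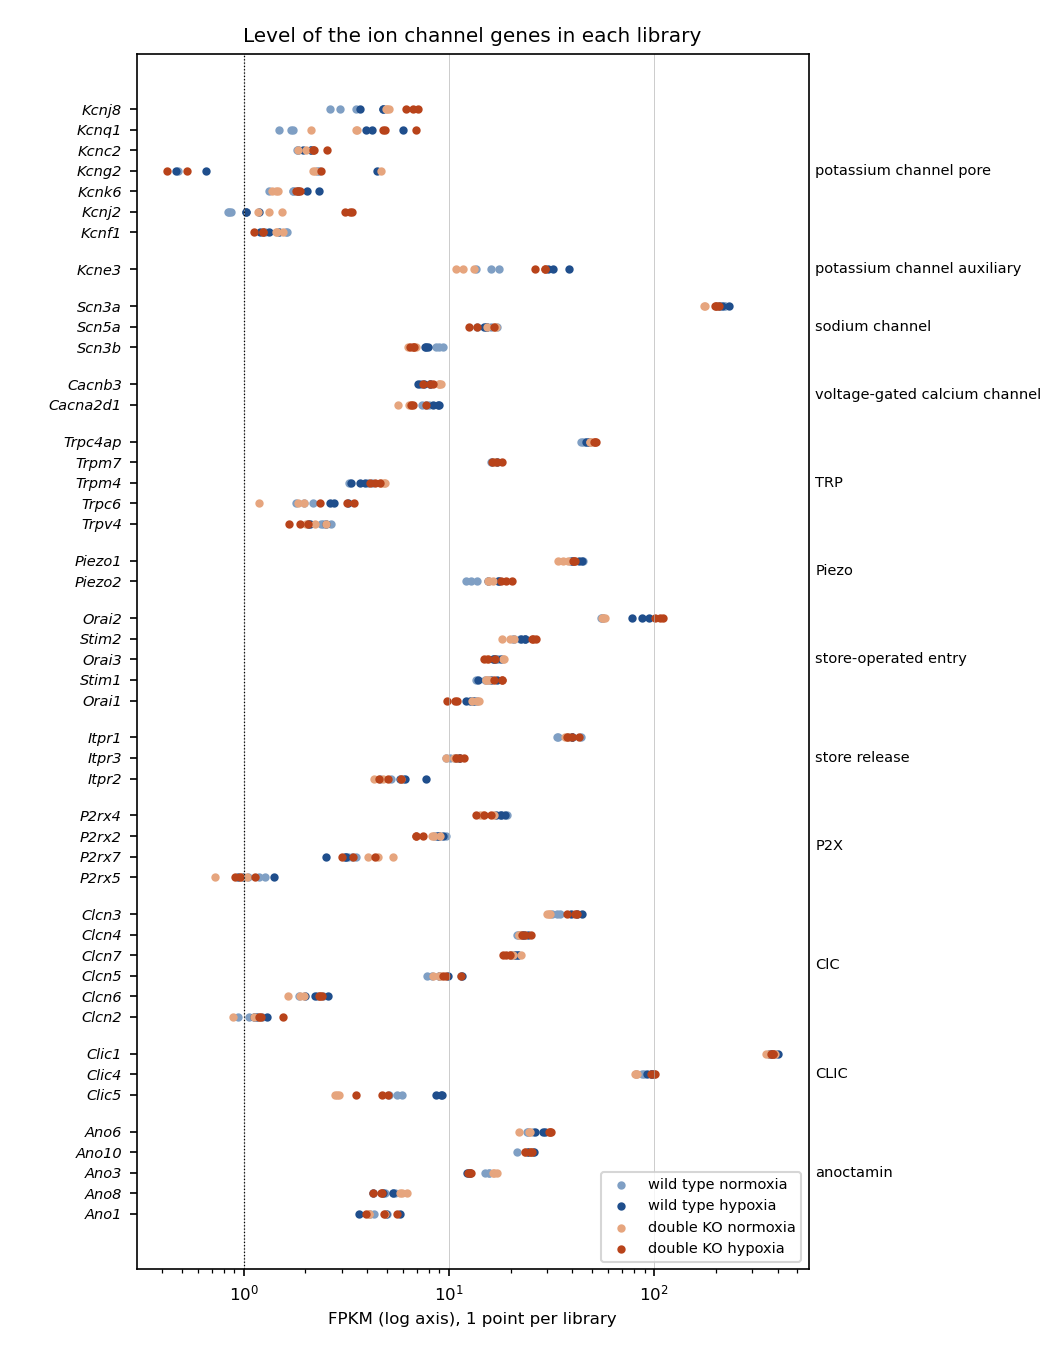
Level of the ion channel genes described here in each library, as FPKM on a log axis, grouped by role, with 1 point per library coloured by group and a dotted line at 1 FPKM. Clic1 and Scn3a are among the highest, and the 4 groups of Kcnj2, Kcnq1 and Clic5 are spread more widely than those of most genes.

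Hypoxia moved the expression of 12 of the 48 genes (25%) in wild type cells past the threshold, 10 upward (20.8%) and 2 downward (4.17%). A gene is said to have passed when its limma p, adjusted by Benjamini-Hochberg over all 11378 genes, was under 0.05. Of all tested genes 20.8% passed, 10.5% upward and 10.4% downward. In the double knockout 20 of the 48 (41.7%) passed, 15 upward (31.2%) and 5 downward (10.4%), against 39.3% of all genes, 19.6% in each direction. The 3 libraries of hypoxia lay wholly above those of normoxia for 18 genes (37.5%) in wild type and 20 (41.7%) in the double knockout. Over all genes these shares were 18.8% and 25.6%. Hypoxia libraries lay wholly below for 4 (8.33%) and 8 genes (16.7%), against 19.4% and 24.6% of all genes. The median log2 change of the 48 genes was 0.08 in wild type and 0.10 in the double knockout, against 0.00 and 0.01 over all genes.

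The comparisons in the 2 genotypes share no library, but the spread of each gene was estimated once over all 12 libraries. The calls in the 2 genotypes are therefore not independent. Of the 48 genes 10 (20.8%) passed upward in both, against 8.48% of all genes. Among these were Kcne3, Kcnq1, Kcnj8, Orai2, Piezo2, Clcn3, Clic4, Clic5 and Ano6. Only Ano3 passed downward in both, which is 2.08% against 8.30% of all genes. None of the 48 passed in opposite directions. Changes below are differences of log2(FPKM + 1), which understate those of genes at low levels, with the standard error (SE) from limma.

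**Figure D2:**
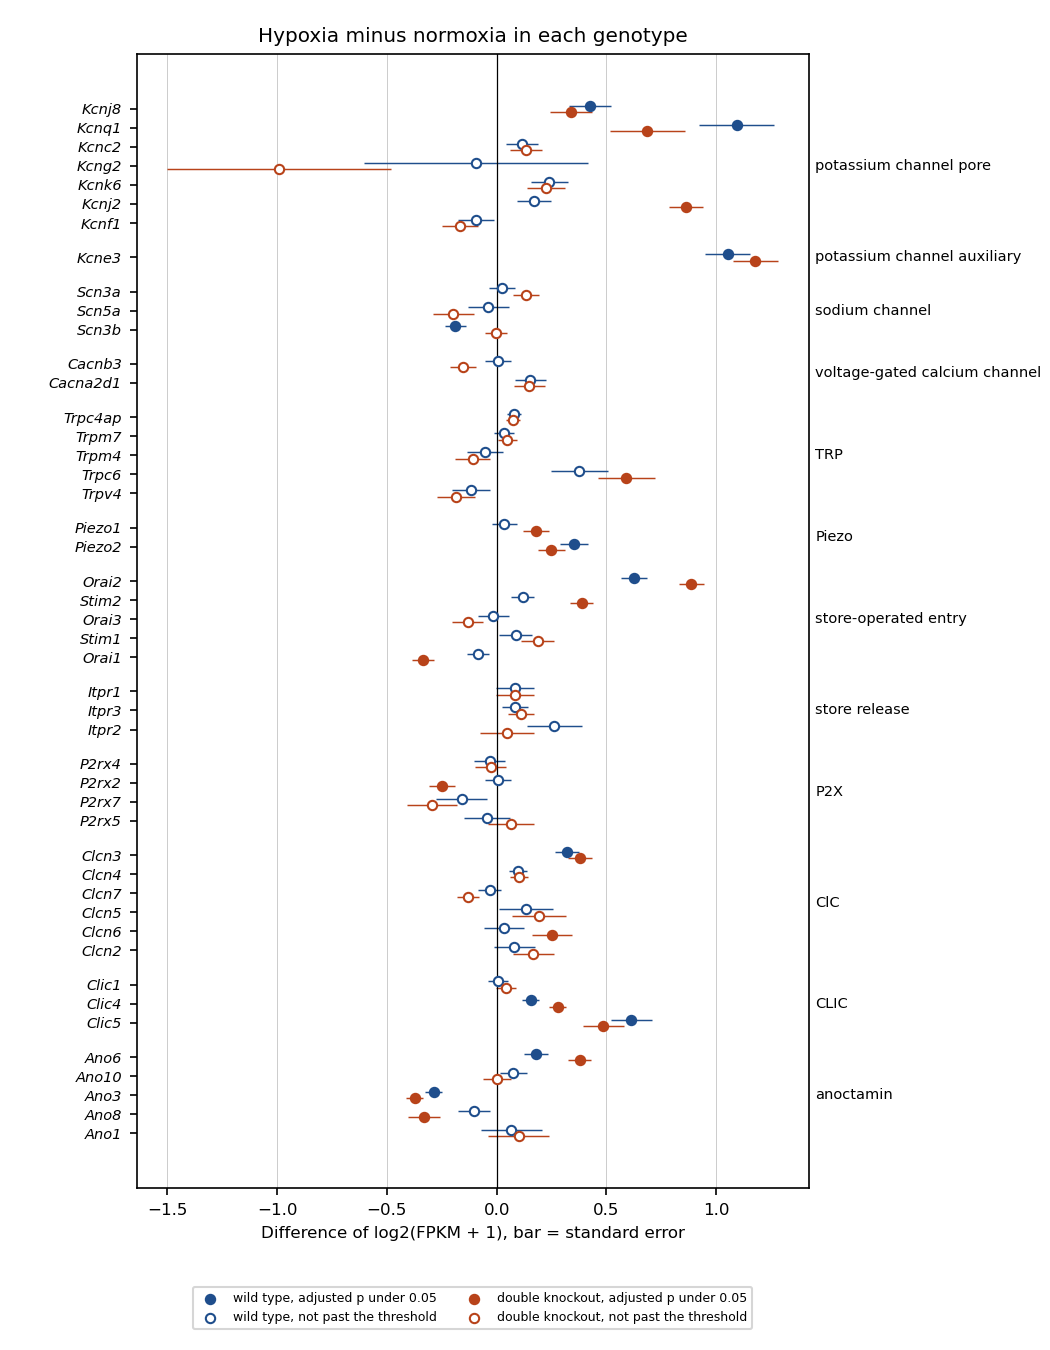
Hypoxia minus normoxia for the genes described here, as a difference of log2(FPKM + 1) with its standard error, in wild type and in the double knockout, where filled points passed at an adjusted p under 0.05. Kcne3, Orai2, Kcnq1 and Clic5 lie to the right in both genotypes, and Kcnj2 lies to the right in the double knockout, at 0.86.

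The potassium channel genes Kcne3 and Kcnq1 had the largest rises in wild type. Kcne3 encodes a small membrane subunit that, joined to the KCNQ1 pore, keeps that potassium channel open. Kcne3 was at 17.5, 13.6 and 16.1 FPKM in normoxic wild type cells, 30.4, 32.4 and 38.4 FPKM in hypoxic wild type cells, 10.9, 11.8 and 13.3 FPKM in normoxic double knockout cells and 29.3, 29.3 and 26.3 FPKM in hypoxic double knockout cells. Every hypoxia library was above every normoxia library of either genotype. Its group mean was 2.14 times the normoxia mean in wild type (log2 difference 1.05, SE 0.10, limma adjusted p = 4.28e-05) and 2.36 times in the double knockout (1.18, SE 0.10, limma adjusted p = 7.42e-06). All 3 transcripts of Kcne3 with a mean of 1 FPKM or more rose in both genotypes, by 0.85 to 1.06 in wild type and by 0.68 to 1.36 in the double knockout (limma adjusted p at most 0.0192).

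Kcnq1 was at 1.71, 1.49 and 1.75 FPKM in normoxic wild type cells, 5.96, 4.22 and 3.96 FPKM in hypoxic wild type cells, 3.53, 2.14 and 3.55 FPKM in normoxic double knockout cells and 4.89, 4.80 and 6.91 FPKM in hypoxic double knockout cells. Hypoxia and normoxia did not overlap in either genotype, but the libraries of a group were spread. The rise of the mean was 2.86 times in wild type (log2 difference 1.09, SE 0.17, limma adjusted p = 0.00123) and 1.80 times in the double knockout (0.69, SE 0.17, limma adjusted p = 0.00732). A pair of transcripts carried the signal. ENSMUST00000009689, with 51.1% of it, was at 1.31, 1.30 and 1.55 FPKM in normoxic wild type cells and 1.95, 2.04 and 2.06 FPKM in hypoxic wild type cells, and on its own did not pass in wild type (0.34, limma adjusted p = 0.114). ENSMUST00000187213 was listed at 0 in all 3 wild type normoxia libraries and at 3.48, 1.89 and 1.51 FPKM in hypoxic wild type cells (limma adjusted p = 0.0254). In the double knockout, the first passed on its own (0.38, limma adjusted p = 0.0468) and the other did not (0.77, limma adjusted p = 0.192). Kcnq1 shares 121 exonic bases with the antisense RNA Kcnq1ot1, and no source used here says whether counting used the strand.

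**Figure D3:**
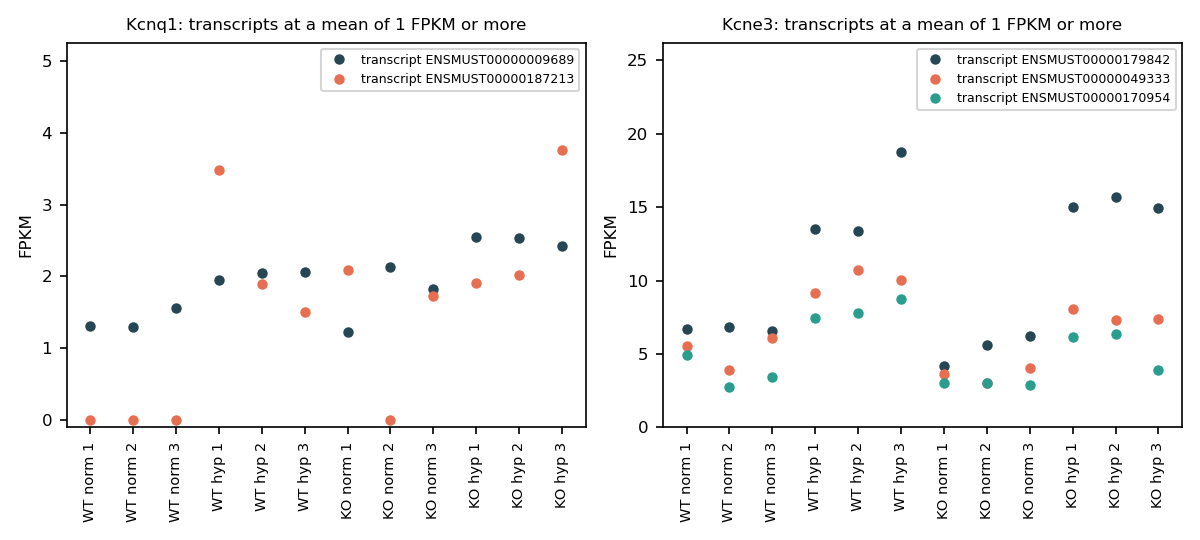
FPKM of the transcripts of Kcnq1 (left) and Kcne3 (right) that averaged 1 FPKM or more, in each of the 12 libraries. For Kcnq1 one transcript is listed at 0 in the wild type normoxia libraries while the other lies at 1.30 to 1.55 FPKM, and all 3 Kcne3 transcripts lie higher in hypoxia.

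Kcnj8 encodes an inward rectifier that is closed by ATP. Its levels were 2.96, 3.53 and 2.63 FPKM in normoxic wild type cells, 4.79, 4.78 and 3.71 FPKM in hypoxic wild type cells, 5.01, 5.11 and 4.95 FPKM in normoxic double knockout cells and 6.18, 7.05 and 6.66 FPKM in hypoxic double knockout cells. The oxygen groups did not overlap within a genotype, and all double knockout normoxia libraries were above all wild type hypoxia libraries. Kcnj8 rose by 0.43 (SE 0.10, limma adjusted p = 0.00952) in wild type and by 0.34 (SE 0.10, limma adjusted p = 0.0149) in the double knockout, where the call was lost without hypoxia library 2 (limma adjusted p = 0.0548). Kcnj8 is also a marker of pericytes. Of 9 mural markers 2 averaged 1 FPKM or more (Acta2 and Tagln), while Rgs5 was at 0.0114 to 0.0746 FPKM and Pdgfrb at 0.102 to 0.238 FPKM. The summed mural level was 28.0 to 36.6 FPKM in normoxic wild type cells, 35.3 to 46.0 in hypoxic wild type cells, 26.0 to 27.4 in normoxic double knockout cells and 27.7 to 33.3 in hypoxic double knockout cells, and its part in the result was not tested. In bulk samples, fewer cells of a type and less RNA per cell cannot be told apart.

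Kcnj2 encodes a strong inward rectifier that helps set the resting potential of endothelium. Library by library it was measured at 0.866, 0.851 and 0.837 FPKM in normoxic wild type cells and 1.19, 1.03 and 1.03 FPKM in hypoxic wild type cells. In the double knockout the normoxia values were 1.18, 1.33 and 1.54 FPKM and those of hypoxia 3.12, 3.36 and 3.31 FPKM. The double knockout hypoxia libraries were above all the others, by more than the spread within any group, while double knockout normoxia libraries overlapped wild type hypoxia. The hypoxia mean was 1.27 times the normoxia mean in wild type and 2.42 times in the double knockout. Kcnj2 had been singled out from these data, so these values are a description. They rest on about 200 fragments a library, all from 1 transcript (ENSMUSG00000041695, GRCm38 chromosome 11, 111066164 to 111076821).

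**Figure D4:**
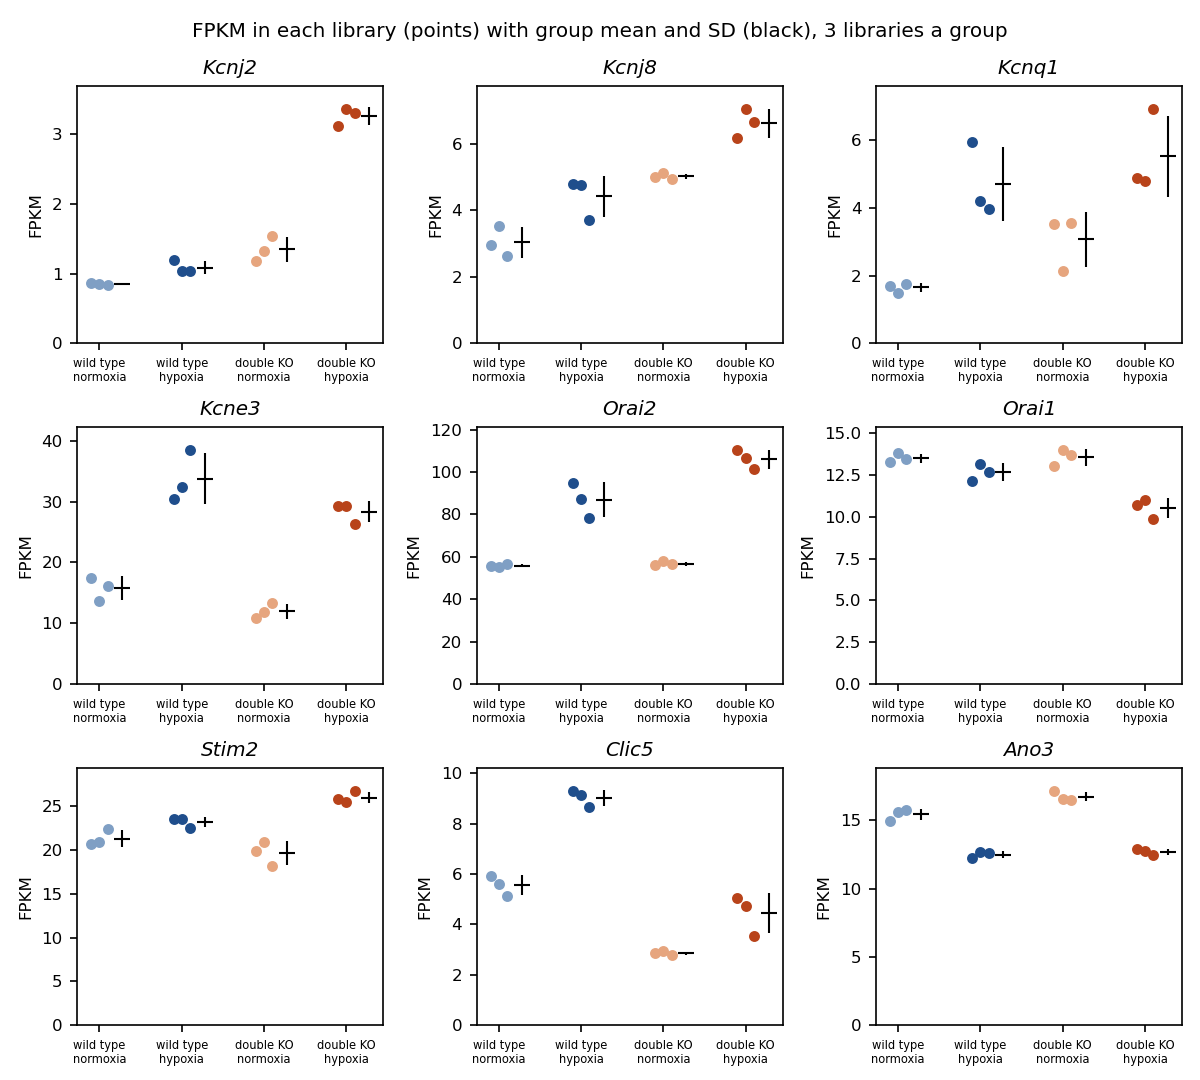
FPKM in each library for 9 of the genes, with 3 points a group and the group mean and SD in black, on axes that start at 0. Kcnj2 is near or above 3 FPKM only in the double knockout hypoxia libraries, while Kcne3 and Orai2 are higher in hypoxia in both genotypes.

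Genes of store-operated calcium entry passed in both directions in the double knockout, while in wild type only Orai2 passed, upward. Orai2 encodes a pore subunit that tempers the current carried by Orai1. It was at 55.7, 55.1 and 56.5 FPKM in normoxic wild type cells, 94.8, 87.4 and 78.3 FPKM in hypoxic wild type cells, 56.0, 57.9 and 56.6 FPKM in normoxic double knockout cells and 110.2, 107 and 101 FPKM in hypoxic double knockout cells. Normoxia libraries of both genotypes lay within a narrow band, and double knockout hypoxia lay above wild type hypoxia. Orai2 rose by 0.63 (SE 0.06, limma adjusted p = 2.46e-05) in wild type and by 0.89 (SE 0.06, limma adjusted p = 7.33e-07) in the double knockout. Orai1, the main pore of the calcium release-activated current, was at 13.3, 13.8 and 13.4 FPKM in normoxic wild type cells, 12.1, 13.2 and 12.7 FPKM in hypoxic wild type cells, 13.0, 14.0 and 13.7 FPKM in normoxic double knockout cells and 10.7, 11.0 and 9.85 FPKM in hypoxic double knockout cells. It fell by 0.34 in the double knockout (SE 0.05, limma adjusted p = 3.08e-04), while in wild type it did not pass.

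Of the summed Orai FPKM, Orai2 made up 64.5% ± 0.348 in normoxic wild type cells and 74.4% ± 2.46 in hypoxic wild type cells (SD, n = 3). In the double knockout it made up 64.8% ± 1.21 and 80.1% ± 0.777 (SD, n = 3). The share of Orai1 was 15.6% in normoxia and 10.9% in hypoxia in wild type, and 15.4% and 7.95% in the double knockout. Stim2, a sensor of small losses of stored calcium, was at 20.6, 20.9 and 22.4 FPKM in normoxic wild type cells, 23.5, 23.6 and 22.5 FPKM in hypoxic wild type cells, 19.9, 20.9 and 18.2 FPKM in normoxic double knockout cells and 25.8, 25.5 and 26.7 FPKM in hypoxic double knockout cells. The oxygen groups were apart in both genotypes. Stim2 rose by 0.39 in the double knockout (SE 0.05, limma adjusted p = 1.27e-04), while in wild type it did not pass. Stim1 and Orai3 did not pass in either genotype.

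Among TRP channels, Trpc6 is one that diacylglycerol opens. Trpc6 was at 2.18, 1.80 and 1.97 FPKM in normoxic wild type cells, 3.24, 2.63 and 2.76 FPKM in hypoxic wild type cells, 1.19, 1.84 and 1.96 FPKM in normoxic double knockout cells and 3.45, 3.19 and 2.37 FPKM in hypoxic double knockout cells. Its groups were apart in both genotypes, yet it passed only in the double knockout (0.59, SE 0.13, limma adjusted p = 0.00370). The difference between its responses did not pass. Trpm7, a channel fused to a kinase, Trpm4 and Trpv4 did not pass in either genotype.

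Piezo1, the shear stress sensor of endothelium, was at 40.0, 45.1 and 39.1 FPKM in normoxic wild type cells, 42.9, 44.6 and 39.8 FPKM in hypoxic wild type cells, 38.0, 35.9 and 34.2 FPKM in normoxic double knockout cells and 41.2, 40.5 and 40.9 FPKM in hypoxic double knockout cells. The wild type groups overlapped. In the double knockout it rose by 0.18 (SE 0.06, limma adjusted p = 0.0303), a call lost without normoxia library 2 or 3 or without any of the 3 hypoxia libraries (limma adjusted p 0.0589 to 0.107). Piezo1 shares 2441 exonic bases with the antisense gene Ctu2, which averaged 15.0 FPKM. Piezo2, better known from touch, was at 12.8, 13.8 and 12.2 FPKM in normoxic wild type cells, 17.4, 17.5 and 15.5 FPKM in hypoxic wild type cells, 15.7, 16.5 and 15.5 FPKM in normoxic double knockout cells and 20.4, 19.0 and 17.9 FPKM in hypoxic double knockout cells. Hypoxia libraries were higher within each genotype. Piezo2 rose by 0.35 in wild type (SE 0.06, limma adjusted p = 0.00287) and by 0.25 in the double knockout (SE 0.06, limma adjusted p = 0.00845).

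No IP3 receptor passed between hypoxia and normoxia in either genotype. Itpr1, the highest of them, was at 33.9, 44.2 and 33.6 FPKM in normoxic wild type cells, 39.7, 39.7 and 38.3 FPKM in hypoxic wild type cells, 38.2, 37.0 and 38.4 FPKM in normoxic double knockout cells and 42.9, 37.8 and 39.8 FPKM in hypoxic double knockout cells. Its groups overlapped in both genotypes. Among ATP-gated channels, P2rx2 fell by 0.25 in the double knockout (SE 0.06, limma adjusted p = 0.00545), from normoxia libraries at 8.48, 8.33 and 9.04 FPKM to hypoxia libraries at 6.88, 6.91 and 7.45 FPKM. The wild type libraries, at 9.69, 8.83 and 8.43 FPKM before and 8.92, 8.72 and 9.39 FPKM after hypoxia, overlapped. Neither auxiliary subunit of calcium channels, Cacnb3 or Cacna2d1, passed between hypoxia and normoxia.

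Among sodium channel genes, Scn3b encodes an auxiliary subunit. Scn3b was at 8.94, 8.69 and 9.33 FPKM in normoxic wild type cells, 7.69, 7.89 and 7.71 FPKM in hypoxic wild type cells, 6.32, 6.79 and 6.89 FPKM in normoxic double knockout cells and 6.50, 6.73 and 6.71 FPKM in hypoxic double knockout cells. It fell by 0.19 in wild type (SE 0.05, limma adjusted p = 0.0181), a call lost without normoxia library 3 (limma adjusted p = 0.0707) or hypoxia library 1 (0.0615), and did not pass in the double knockout, where the groups overlapped.

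Of 6 ClC and 3 CLIC genes, 1 and 2 rose in wild type, 2 and 2 rose in the double knockout, and 0 fell in either. Of all genes 10.5% passed upward and 10.4% downward in wild type, and 19.6% in each direction in the double knockout. Clcn3, a chloride and proton exchanger of endosomes, was at 31.9, 34.8 and 33.7 FPKM in normoxic wild type cells, 44.6, 42.2 and 39.4 FPKM in hypoxic wild type cells, 31.0, 30.9 and 30.0 FPKM in normoxic double knockout cells and 42.1, 41.0 and 37.7 FPKM in hypoxic double knockout cells. The oxygen groups were apart in both genotypes. Clcn3 rose by 0.32 in wild type (SE 0.05, limma adjusted p = 0.00191) and by 0.38 in the double knockout (SE 0.05, limma adjusted p = 1.97e-04). Clcn6, of late endosomes, passed in the double knockout only (0.25, SE 0.09, limma adjusted p = 0.0435), and that call was lost without any 1 of its 6 libraries (limma adjusted p 0.0518 to 0.138).

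CLIC proteins are found both soluble and at membranes. Clic1, the highest of the 48, was at 388, 369.6 and 374 FPKM in normoxic wild type cells, 364, 370.0 and 402 FPKM in hypoxic wild type cells, 351, 364 and 389 FPKM in normoxic double knockout cells and 373, 382 and 379.8 FPKM in hypoxic double knockout cells, and its groups overlapped in every comparison. Clic5 was at 5.92, 5.62 and 5.13 FPKM in normoxic wild type cells, 9.28, 9.12 and 8.67 FPKM in hypoxic wild type cells, 2.85, 2.93 and 2.80 FPKM in normoxic double knockout cells and 5.06, 4.74 and 3.54 FPKM in hypoxic double knockout cells. Hypoxia was higher within each genotype and the double knockout lower at each oxygen level, so that its hypoxia libraries were below those of wild type normoxia. Clic5 rose by 0.61 in wild type (SE 0.09, limma adjusted p = 0.00110) and by 0.49 in the double knockout (SE 0.09, limma adjusted p = 0.00166). Clic4, which takes part in endothelial tube formation, averaged 86.0 and 95.9 FPKM in normoxic wild type cells and hypoxia (log2 difference 0.16, limma adjusted p = 0.0156) and 81.8 and 99.5 FPKM in the double knockout (0.28, limma adjusted p = 1.85e-04). The wild type call of Clic4 was lost without normoxia library 3 or without hypoxia library 1 or 2 (limma adjusted p 0.0590 to 0.0635), and under quantile normalization (0.246).

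Of the anoctamins, Ano6, a calcium-activated lipid scramblase, was at 24.1, 25.7 and 24.4 FPKM in normoxic wild type cells, 28.7, 29.3 and 26.4 FPKM in hypoxic wild type cells, 24.5, 24.9 and 21.9 FPKM in normoxic double knockout cells and 31.2, 30.7 and 31.5 FPKM in hypoxic double knockout cells. It rose by 0.38 in the double knockout (SE 0.05, limma adjusted p = 1.93e-04) and by 0.18 in wild type (SE 0.05, limma adjusted p = 0.0342), where the call was lost without normoxia library 1 or 3 or hypoxia library 1 or 2 (limma adjusted p 0.0931 to 0.120). Ano3 was at 15.0, 15.6 and 15.7 FPKM in normoxic wild type cells, 12.2, 12.7 and 12.6 FPKM in hypoxic wild type cells, 17.1, 16.5 and 16.5 FPKM in normoxic double knockout cells and 12.9, 12.7 and 12.4 FPKM in hypoxic double knockout cells. All hypoxia libraries were below all normoxia libraries. Ano3 fell by 0.29 in wild type (SE 0.04, limma adjusted p = 5.31e-04) and by 0.37 in the double knockout (SE 0.04, limma adjusted p = 2.54e-05). Ano8, which tethers the endoplasmic reticulum to the plasma membrane, was at 5.34, 4.90 and 5.45 FPKM in normoxic wild type cells, 4.29, 5.36 and 4.77 FPKM in hypoxic wild type cells, 5.90, 6.25 and 5.80 FPKM in normoxic double knockout cells and 4.71, 4.27 and 4.69 FPKM in hypoxic double knockout cells. It fell by 0.33 in the double knockout (SE 0.07, limma adjusted p = 0.00383). Ano8 shares 80 exonic bases with the antisense gene Dda1, which averaged 27.2 FPKM.

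Some hypoxia calls also hung on the transcripts or libraries used in the fit. With the main transcript of each gene on its own, the fit was over all transcripts with a mean of 1 FPKM or more. The calls of Kcnj8 were then lost in wild type (limma adjusted p = 0.176) and in the double knockout (0.308), as were those of Piezo2 (0.138 and 0.0555). Those of Scn3b in wild type (0.789) and of Piezo1 and Clcn6 in the double knockout (0.218 and 0.324) were lost too. That of Ano6 in wild type was also lost (0.0639). Ano6 has 1 transcript and kept its log2 difference of 0.18, so only the fit around it differed. With only the wild type libraries in the fit, those of Ano6, Clic4 and Scn3b were lost in wild type (limma adjusted p at most 0.0533). Kcne3, Orai2, Clic5, Clcn3 and Ano3 kept their calls in both genotypes in all alternatives run.

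Comparisons of genotype use the same libraries as those of hypoxia, so their values are given side by side and not as separate evidence. In normoxia 11 of the 48 genes (22.9%) passed between double knockout and wild type, 6 upward in the double knockout (12.5%) and 5 downward (10.4%). Of all genes 8.16% passed, 3.84% upward and 4.32% downward. In hypoxia 10 passed (20.8%), 4 upward (8.33%) and 6 downward (12.5%), against 16.1% of all genes, 7.68% and 8.42%. The median log2 difference of the 48 genes was -0.01 in normoxia and 0.00 in hypoxia, as over all genes. Without 1 of the wild type normoxia libraries the normoxia count was 7, 6 or 5, and without double knockout normoxia library 3 it was 6. Kcnj2 is among the 11, and its call was lost without wild type normoxia library 2 or 3 or double knockout normoxia library 3 (limma adjusted p 0.0517 to 0.0693).

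**Figure D5:**
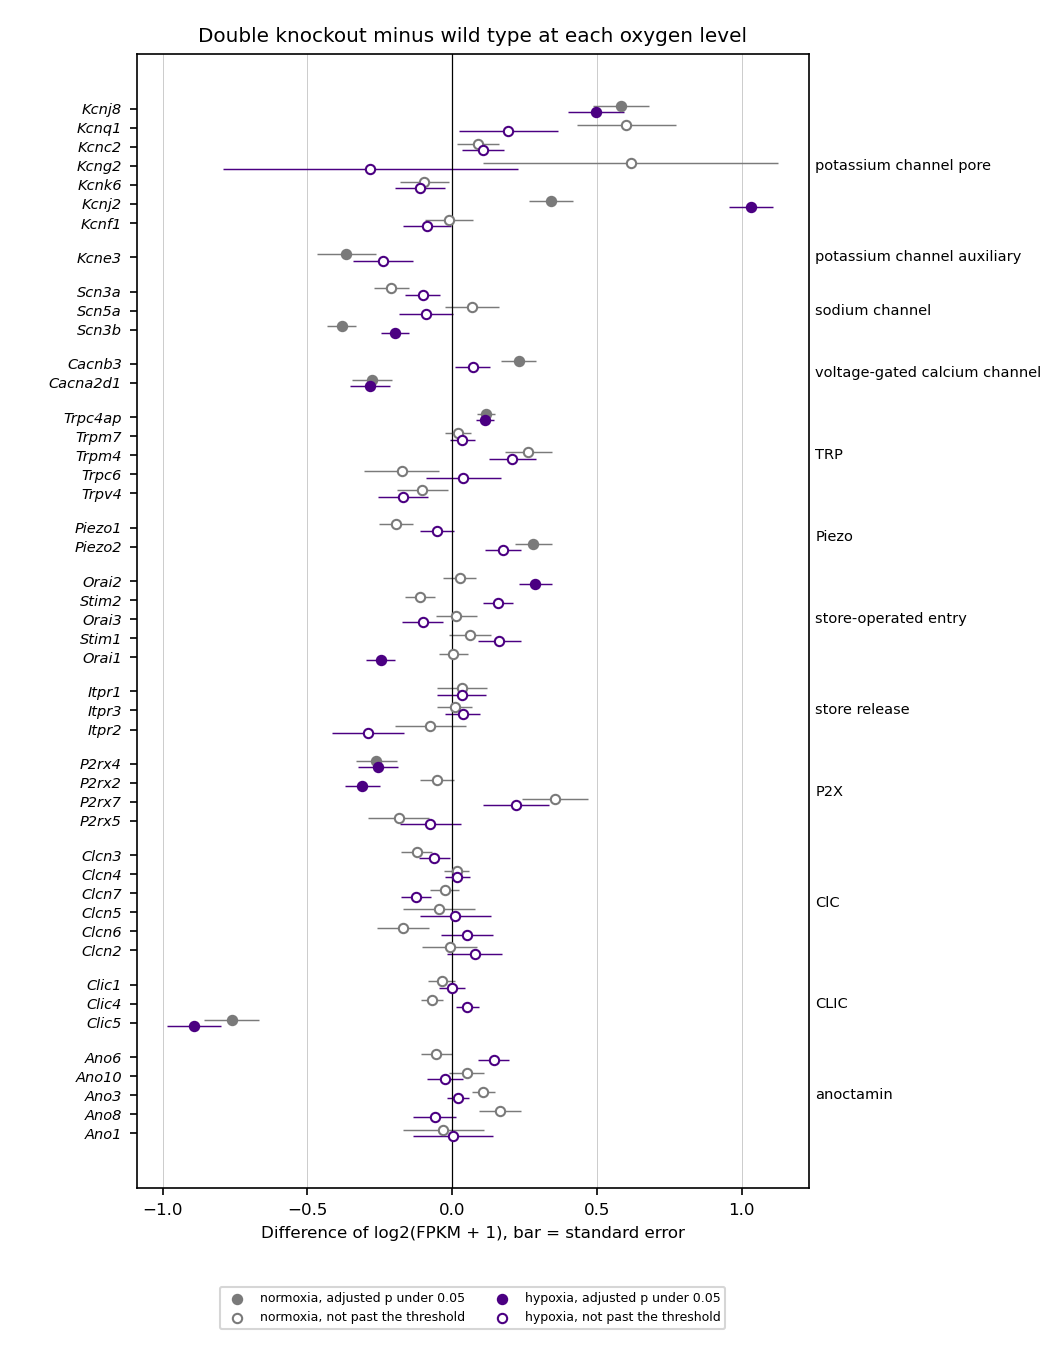
Double knockout minus wild type for the genes described here, as a difference of log2(FPKM + 1) with its standard error, in normoxia and in hypoxia, where filled points passed at an adjusted p under 0.05. Clic5 lies farthest to the left at both oxygen levels, Kcnj8 lies to the right at both, and Kcnj2 lies at 0.34 in normoxia and at 1.03 in hypoxia.

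Of the genes that passed between genotypes, Clic5 differed most in normoxia, and only Kcnj2 differed more in hypoxia. Its double knockout mean was 0.515 times that of wild type in normoxia (log2 difference -0.76, SE 0.09, limma adjusted p = 3.79e-04) and 0.493 times in hypoxia (-0.89, SE 0.09, limma adjusted p = 9.08e-05). Kcnj8 was higher in the double knockout, by 0.58 in normoxia (SE 0.10, limma adjusted p = 0.00288) and 0.50 in hypoxia (SE 0.10, limma adjusted p = 0.00486), with no overlap at either oxygen level. Over the same libraries 6 fibroblast markers summed to 1.97 to 3.24 FPKM in wild type and 4.38 to 6.41 FPKM in the double knockout, and 4 lymphatic markers to 482 to 593 and 372 to 445 FPKM. Their part in the genotype differences was not tested. The double knockout mean of Kcnj2 was 1.58 times that of wild type in normoxia and 3.01 times in hypoxia, again as a description. Orai2 did not pass in normoxia (55.8 ± 0.698 against 56.8 ± 0.975 FPKM, SD, n = 3) and was higher in the double knockout in hypoxia by 0.29 (SE 0.06, limma adjusted p = 0.00558). Orai1 and P2rx2 were lower in the double knockout in hypoxia, by 0.25 (limma adjusted p = 0.00704) and 0.31 (limma adjusted p = 0.00446), and did not pass in normoxia. With the main transcript of each gene alone, the genotype calls of Kcnj8 were lost (limma adjusted p = 0.0840 in normoxia and 0.125 in hypoxia), as were the hypoxia calls of Orai1 (0.252) and P2rx2 (0.159).

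Scn3b was lower in the double knockout, with log2 differences of -0.38 in normoxia (SE 0.05, limma adjusted p = 4.84e-04) and -0.20 in hypoxia (SE 0.05, limma adjusted p = 0.0179). The hypoxia call of Scn3b was lost without wild type hypoxia library 2 (limma adjusted p = 0.0636) or double knockout hypoxia library 1 (0.0643), and both calls with its main transcript alone (0.507 and 0.642). Kcnk6, which did not pass between genotypes, lies on chromosome 7, 1.55 Mb from the targeted Map3k10.

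The remaining genotype calls were small, and each was lost without at least 1 library. P2rx4, an ATP-gated channel of endothelium and macrophages, was at 17.8, 17.9 and 19.2 FPKM in normoxic wild type cells, 17.9, 16.9 and 18.8 FPKM in hypoxic wild type cells, 14.6, 16.6 and 14.2 FPKM in normoxic double knockout cells and 13.6, 16.0 and 14.9 FPKM in hypoxic double knockout cells. The genotypes did not overlap at either oxygen level. P2rx4 differed by -0.26 in normoxia (limma adjusted p = 0.0390) and by -0.26 in hypoxia (limma adjusted p = 0.0270). These calls were lost without wild type normoxia library 1, 2 or 3 or double knockout normoxia library 1 or 3 (limma adjusted p 0.0655 to 0.133), and without wild type hypoxia library 1 or 3 or double knockout hypoxia library 1 or 3 (0.0656 to 0.109). Leukocyte markers summed to 20.1 to 28.7 FPKM in wild type and 59.7 to 72.7 FPKM in the double knockout, mostly as Lyz2, while Ptprc was at 0.0820 to 1.28 FPKM. Their part in the genotype differences of P2rx4 and Kcnj2, which macrophages also express, was not tested.

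Cacna2d1, the calcium channel subunit that gabapentin binds, was at 8.02, 7.73 and 7.44 FPKM in normoxic wild type cells, 8.85, 8.36 and 8.92 FPKM in hypoxic wild type cells, 6.54, 6.43 and 5.66 FPKM in normoxic double knockout cells and 7.77, 6.52 and 6.71 FPKM in hypoxic double knockout cells. The double knockout was lower at each oxygen level, by -0.28 in normoxia (limma adjusted p = 0.0293) and -0.28 in hypoxia (limma adjusted p = 0.0175). The normoxia call was lost without any of the 3 wild type libraries or double knockout library 2 or 3 (limma adjusted p 0.0535 to 0.108), and the hypoxia call without wild type library 1 or 3 or double knockout library 2 or 3 (0.0513 to 0.0656). Cacnb3, a subunit that brings calcium channel pores to the membrane, was at 7.28, 7.28 and 8.09 FPKM in normoxic wild type cells, 7.61, 8.06 and 7.09 FPKM in hypoxic wild type cells, 8.92, 8.96 and 9.17 FPKM in normoxic double knockout cells and 8.42, 8.12 and 7.51 FPKM in hypoxic double knockout cells. It passed in normoxia (0.23, limma adjusted p = 0.0378), a call lost without wild type normoxia library 1 or 2 or any of the 3 double knockout normoxia libraries (limma adjusted p 0.0726 to 0.126).

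Trpc4ap, which is no channel but a protein that binds TRPC4, was at 46.4, 43.9 and 45.2 FPKM in normoxic wild type cells, 48.4, 48.0 and 46.8 FPKM in hypoxic wild type cells, 48.8, 49.3 and 48.9 FPKM in normoxic double knockout cells and 51.8, 51.1 and 52.2 FPKM in hypoxic double knockout cells. It passed upward in the double knockout in normoxia (0.12, limma adjusted p = 0.0409) and hypoxia (0.11, limma adjusted p = 0.0299). The normoxia call was lost without wild type library 2 or 3 or any of the 3 double knockout libraries (limma adjusted p 0.0737 to 0.141), and the hypoxia call without wild type library 2 or 3 or any of the 3 double knockout libraries (0.0559 to 0.0931). Piezo2 passed in normoxia (0.28, limma adjusted p = 0.0179), but not without wild type normoxia library 1 or 3 or double knockout normoxia library 2 (0.0541 to 0.0719). Kcne3 passed downward in normoxia by a narrow margin (-0.37, limma adjusted p = 0.0495), and the call was lost without wild type library 1 or 3 or double knockout library 1 or 2 (0.125 to 0.157).

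The difference between the hypoxia responses of the genotypes asks which genes hypoxia moved by unequal amounts. Of the 48 genes 1 passed, against 22 of all genes (0.193%, with 0.0703% upward and 0.123% downward), and it was Kcnj2, whose log2 difference of responses was 0.69 (SE 0.11). Kcnj2 had been singled out from these data, so this is a description. At an unadjusted limma p under 0.05 there were 10 of the 48 genes, against 1820 of all 11378 genes. Genes such as Orai1, P2rx2, Stim2 and Piezo1 passed in hypoxia in only the double knockout, and none of them was shown to differ in response between the genotypes.

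Kcng2, a modifier subunit of potassium channels, was the most variable of the 48, at 0.423 to 4.65 FPKM over the libraries with about 24.5 fragments a library. Its spread within groups was 0.75 on the log2 scale, against a median of 0.0827, and it passed in no comparison. Its hypoxia mean in the double knockout was 0.369 times the normoxia mean (log2 difference -0.99, limma adjusted p = 0.144). The next most variable was Kcnq1, at 0.24.

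The machinery around the channels was read from lists of other genes of ion transport. Their hypoxia counts are to be read beside the shares over all tested genes. Those were 10.5% upward and 10.4% downward in wild type, and 19.6% in each direction in the double knockout. With so few genes per list, the counts are a description. Among calcium pumps and exchangers 6 of 13 listed genes were tested, and 2 rose in hypoxia in each genotype. Atp2a2, the pump that refills the endoplasmic reticulum, rose by 0.27 in wild type (limma adjusted p = 0.00324) and 0.45 in the double knockout (limma adjusted p = 3.77e-05). Atp2b1, which pumps calcium out of the cell, rose by 0.27 in wild type (limma adjusted p = 0.00160) and 0.37 in the double knockout (limma adjusted p = 7.10e-05). Of 9 tested regulators of store-operated entry (of 14 listed) 2 fell in each genotype and 0 rose. Cracr2b, a cytosolic calcium-binding protein of this pathway, fell by 0.31 in wild type (limma adjusted p = 0.00233) and 0.44 in the double knockout (limma adjusted p = 8.40e-05). None of 6 tested genes of the mitochondrial calcium uniporter (of 7 listed) passed in any comparison, and Smdt1, its highest, averaged 195 FPKM. Neither did Asic1 or Cngb1, the only genes tested of 15 epithelial sodium, acid-sensing, pacemaker and cyclic nucleotide-gated channels.

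Of 12 tested cation channels of organelles (of 15 listed) 1 rose and 1 fell in hypoxic wild type cells, and 1 rose and 2 fell in the double knockout. Mcoln1, the main lysosomal calcium channel, fell by 0.69 in hypoxic double knockout cells (limma adjusted p = 7.72e-05), while in wild type it did not pass. Pkd2l1, a polycystin channel, was lower in the double knockout by -0.74 in normoxia (limma adjusted p = 5.11e-04) and -1.03 in hypoxia (limma adjusted p = 3.62e-05). Of 12 tested other anion channel genes (of 18 listed) 1 rose in wild type, and 5 rose and 2 fell in the double knockout. Tmem206, an acid-activated chloride channel, fell by 0.48 (limma adjusted p = 6.18e-04) and Ttyh3 rose by 0.26 (limma adjusted p = 0.00336) in the double knockout. Calhm2, an ATP-releasing channel and the only gene tested of 9 pannexin and CALHM genes, fell by 0.32 in wild type (limma adjusted p = 0.00324) and 0.71 in the double knockout (limma adjusted p = 4.77e-06).

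Of 8 tested genes of chloride cotransport and its WNK kinase pathway (of 14 listed) 1 rose in hypoxic wild type cells, and 3 rose and 1 fell in the double knockout. Stk39, a kinase that activates chloride cotransporters, rose by 0.37 in wild type (limma adjusted p = 9.32e-04) and 0.31 in the double knockout (limma adjusted p = 9.49e-04). It was lower in the double knockout, by -0.36 in normoxia (limma adjusted p = 0.00198) and -0.42 in hypoxia (limma adjusted p = 4.42e-04). Slc12a2, the sodium, potassium and chloride cotransporter, was higher there by 0.28 in normoxia (limma adjusted p = 0.00147) and 0.29 in hypoxia (limma adjusted p = 8.09e-04). Of 6 tested sodium pump genes (of 11 listed) 2 rose in hypoxic wild type cells and 1 fell in the double knockout, which was Fxyd6, a modulator of the pump (-0.66, limma adjusted p = 7.83e-05). None of the genes of these lists passed in the difference of responses.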

How the data were processed

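RNA-seq libraries were made with the RNeasy Plus and NEBNext Ultra kits, per the labels' protocols, and the submitters' processing notes name TopHat2. For 52655 transcripts the authors deposited 1 FPKM value a library. None of genome build, annotation, strand setting and FPKM tool was given in the sources used here. Transcript FPKM was summed over gene identifiers, and the 11378 genes with a mean of 1 FPKM or more over 12 libraries were tested on log2(FPKM + 1). The deposited FPKM are not counts, so no count model was used. limma 3.58.1 (R 4.3.3) was fitted to all 12 libraries with 1 coefficient per group (variance trend on the mean, Benjamini-Hochberg within a comparison, threshold 0.05). Each of the 5 comparisons was tested over all genes, and the steps were tested on simulated data.

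The members, their grouping by role, the lists of other transport genes and the comparisons were chosen with earlier results of these data known. Named genes were Kcnj2, the highest of each role group, up to 8 in each direction per comparison, the nearest to the threshold, and up to 3 per list with the smallest p. All further members that passed are named too, and Kcng2, Stim1, Orai3, Trpm7, Trpm4, Trpv4, Kcnk6, Scn3a and several genes under 1 FPKM were added after their values were seen. Some genes the rule chose are not reported here, though they count in the totals. Sequencing depth was inferred from the step sizes of low FPKM in 8683 genes with 1 transcript, after 275 bases were subtracted from each length, which put 90.5 to 92.5% of values within 0.1 of a whole fragment. Positions are those of GENCODE M21 (GRCm38), where 95.2% of the transcripts were found, and promoters from RefSeq. Alternatives were another pseudocount, other filters, quantile and median scaling, a fit to only the compared libraries, array weights, a replicate block, the main transcript alone, no variance trend, and each library left out.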

Additional observations from a re-analysis of the deposited data

Results flagged for a closer look

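The hypoxia response of Kcnj2 was larger in the double knockout than in wild type, with a difference of 0.69 on the log2(FPKM + 1) scale (limma adjusted p = 0.0347), and this difference of effects between genotypes drew attention to it. The gene had been singled out from these data, so this p is no independent evidence. All 3 double knockout hypoxia libraries were above all 9 others. The difference was positive in all 20 alternatives, at 0.64 to 0.91, and passed in 6 of them. These alternatives refit the same libraries from which the gene was singled out, so their shared sign is no further evidence. No other of the 48 genes passed.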

How the results depend on the processing

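Of the genes called, 6 of 12 kept their call in every alternative in wild type hypoxia, 16 of 20 in double knockout hypoxia, 2 of 11 between genotypes in normoxia and 3 of 10 between genotypes in hypoxia, and 0 changed direction. The normoxia genotype count of 11 became 7 with no filter on low values, 5 with the libraries of the comparison alone, and 5 to 8 with a library left out. Over all genes that comparison gave 929 calls, 616 with its own libraries alone, 583 without wild type normoxia library 2 and 617 without double knockout normoxia library 2. Wild type hypoxia gave 2370 calls over all genes, 1382 without wild type hypoxia library 1 and 1495 without library 2. The hypoxia genotype comparison gave 1832, 1175 without wild type hypoxia library 2 and 1185 without double knockout hypoxia library 1. The 1 call in the difference of responses became 0 with a pseudocount of 0.1 (Kcnj2 limma adjusted p = 0.0654), 0 with a mean of at least 5 FPKM, under which Kcnj2 was not tested, 0 with a replicate block (limma adjusted p = 0.0793), 2 with array weights, and 0 to 1 with a library left out. It was lost without every library but wild type hypoxia library 1 (limma adjusted p 0.0565 to 0.125). Over all genes the difference gave 22 calls, 12 with quantile normalization, 1 with the block, 6 with no variance trend, 153 with array weights and 1 to 39 with a library left out. Deviations of same-numbered libraries correlated at -0.0841 to 0.167, against -0.135 to 0.131 for differently numbered ones, and 5 of 12 libraries correlated best with their own number. No source used here states that a replicate number marks a shared animal or day. With the block the counts were 12 in wild type hypoxia, 22 in double knockout hypoxia, and 11 between genotypes at each oxygen level, where in normoxia the calls of Cacnb3, Trpc4ap and Kcne3 were lost (limma adjusted p = 0.0628, 0.0581 and 0.0601). The fit with the libraries of a comparison alone was not run for the difference, which uses all 12. Small changes in genes at low FPKM are limited by depth.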
